A study of Homo sapiens with 21 samples.

Results

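The comparison described here sets cells 4 h after neocarzinostatin (NCS), an agent that cuts DNA on both strands, against untreated cells of the same line. The cells were hTERT-HPNE, a pancreatic line that was immortalized with telomerase (hTERT) and is not transformed. The 6 libraries of the comparison, 3 untreated (0 h) and 3 at 4 h after 400 ng/ml NCS, were chosen by their labels out of the 21 libraries of an RNA-seq series. Its other groups, also of 3 biological replicates, were NCS at 8 and 24 h and 300 μM hydrogen peroxide (H2O2) at 4, 8 and 24 h. All cells grew in medium with EGF and puromycin. At treatment the medium was replaced with fresh medium, and no library of mock-treated cells at 4 h was analysed here, so that NCS, the fresh medium and the 4 h in culture cannot be told apart. Of 23368 genes listed, the 19694 whose values varied between libraries were compared.

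The values are rLog values, which are read counts on a log2 scale after the DESeq2 transformation that shrinks differences, most of all for genes with few reads. A difference of 1 is therefore about 2-fold, and less than the true change for low genes. Depth is unknown, since the values carry no counts, and a lower value per gene may reflect fewer cells that express it or less RNA per cell, which bulk RNA cannot tell apart. Levels of different genes are not compared, because the values are not scaled to gene length. The library medians lay between 7.1512 and 7.1586 in untreated cells and between 7.1653 and 7.1716 after NCS. The distance between libraries over all genes was 10.6 to 11.21 among untreated replicates, 8.939 to 9.657 among NCS replicates and 20.4 to 22.42 between the groups, so that every library was nearest to its own group.

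Markers were read in untreated cells as a check of the label. The 13 mesenchymal markers had mean values from 5.10 (S100A4) to 20.13 (fibronectin, FN1), with COL1A1 at 17.97 and vimentin (VIM) at 17.05. Of the 12 duct markers, the keratin gene KRT18 was at 11.64, KRT8 at 7.78, KRT7 at 6.74, MUC1 at 6.12 and SOX9 at 5.93, but KRT19 was at 0.60, CFTR at -1.34, EPCAM at -1.76 and CA2 at -2.18, near the lowest value of the table (-2.314). The defining genes of other cells were near that lowest value for CPA1 of acinar cells (-2.18), GCG of endocrine cells (-1.90) and CDH5 of endothelium (-2.04), and at 0.94 for PTPRC of leukocytes. The values in these lists reached 3.86 (CEL, acinar), 6.03 (ISL1, endocrine), 8.68 (TEK, endothelial) and 9.97 (CD68, leukocyte). TERT, which the line carries as a transgene, was at 14.30. None of the acinar, endocrine and leukocyte lists (7, 7 and 6 genes) had a member that passed the test described below.

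Double-strand breaks activate the kinase ATM, which stabilizes the transcription factor p53. p53 then switches on genes for cell cycle arrest, DNA repair, metabolism and death, along with MDM2 and PPM1D, which shut p53 off again. Many genes whose transcripts are made in G2 and mitosis carry in their promoters a short element called the CHR, which is bound by the DREAM and MMB complexes.

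After NCS a small set of genes rose in which p53 targets led, and a small set fell that was made up almost wholly of genes of mitosis. Differentially expressed genes are those with a log2 difference beyond 1 in either direction and with an adjusted p under 0.05 (limma, fitted over all groups). By this rule 18 genes were higher, which is 0.0914% of the genes tested, and 25 were lower, which is 0.127%. The values of the 3 untreated and the 3 NCS libraries did not overlap in any of these 43 genes. The rule selects for such a separation in the same libraries, so this adds no support. Of all genes, 30% had no overlap. Smaller differences were far more common. With the adjusted p alone, 1471 genes were higher (7.47%) and 1914 were lower (9.72%). Low genes rarely passed, and among the 11681 genes with a mean value of at least 5 these shares were 11.9% and 15.9%. Just inside the limit of 1 lay ACER2 at 1.02 and NEK2 at -1.02, and just outside it GDNF at 0.99 and MKI67 at -0.99. One further gene, CD99, differed by 1.02 but varied so much between libraries that it did not pass (adjusted p = 0.474).

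**Figure D1:**
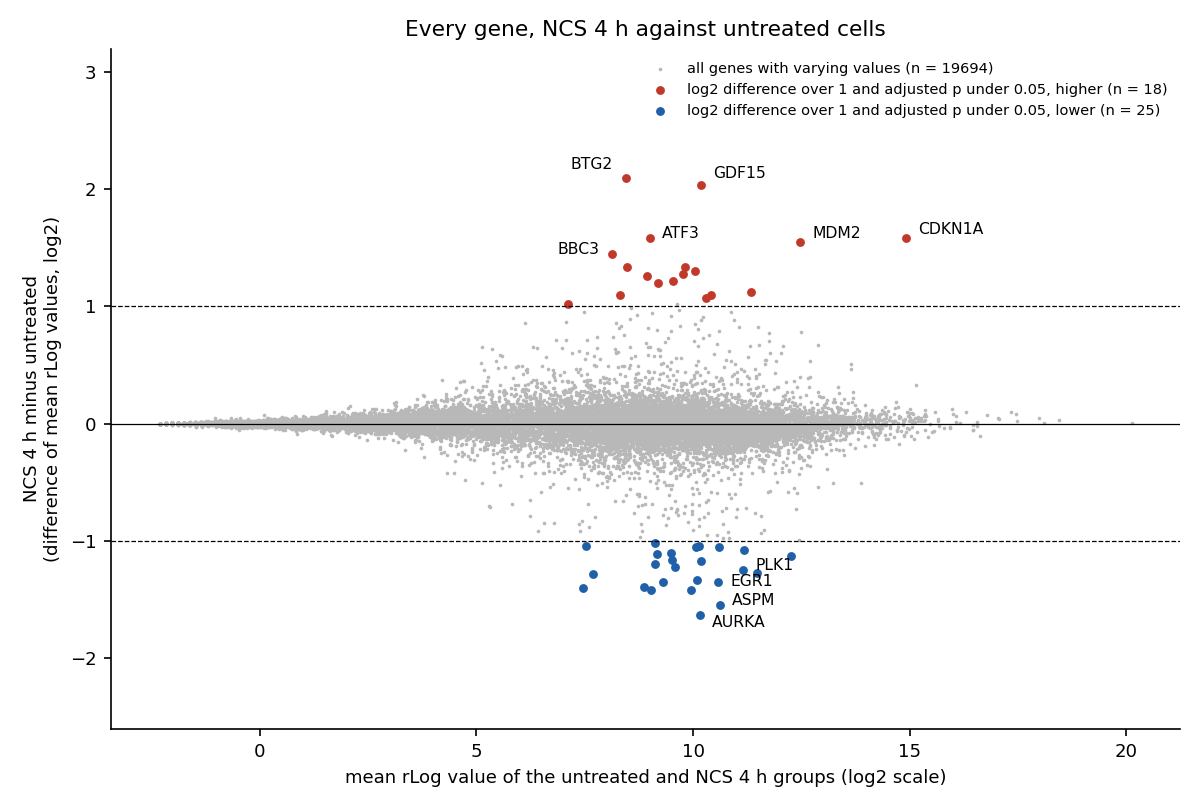
Difference between the mean rLog values of NCS 4 h and untreated cells (log2, y axis) against their mean (x axis), 1 point per gene, with dashed lines at 1 and -1. The 18 red and 25 blue genes passed both limits, and the cloud narrows to the left, where the transformation shrinks low genes most.

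The largest rise was that of BTG2, a p53 target that slows the cycle and recruits the deadenylase that removes poly(A) tails. Its rLog value was 7.47, 7.34 and 7.37 in untreated cells and 9.43, 9.58 and 9.48 after NCS, a log2 difference of 2.10 ± 0.068 (SE, n = 3 per group) and a 4.30-fold rise on this scale. GDF15, a secreted stress cytokine, stood at 9.16, 9.16 and 9.19 and then at 11.17, 11.21 and 11.24, a difference of 2.04 ± 0.11. In both genes the replicates of a group lay close together and the groups were far apart. The arrest gene CDKN1A, which encodes the CDK inhibitor p21, was already abundant in untreated cells at 14.13, 14.14 and 14.08 and reached 15.70, 15.69 and 15.71 (1.58 ± 0.074). Other arrest genes of the p53 network that were called higher were the polo-like kinases PLK2 (1.30) and PLK3 (1.07) and PHLDA3 (1.12), an inhibitor of AKT. The list of p53 targets for arrest and mRNA decay had 11 genes, of which 9 rose and none fell, with a median difference of 0.85. The median over all genes was -0.0003, and of genes with a mean value of at least 5, 11.9% were higher and 15.9% lower. GADD45A, which holds cells at G2, rose by 0.57 ± 0.055 (adjusted p = 5.67e-07), and TOB1, an antiproliferative relative of BTG2, by 0.85.

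MDM2, the ubiquitin ligase that degrades p53, was the feedback gene with the largest rise. It had values of 11.72, 11.75 and 11.63 before and of 13.21, 13.30 and 13.25 after NCS, a difference of 1.55 ± 0.057. PPM1D, the phosphatase WIP1 that turns the ATM signal off, rose by 0.79, TRIM22 by 0.62 and CCNG1 by 0.29. In the opposite direction, CCNG2, a cyclin linked to quiescence that FOXO factors switch on, fell by 0.69, from 7.95, 7.83 and 7.97 to 7.21, 7.30 and 7.18. MDM4, the partner of MDM2, did not pass (0.07, adjusted p = 0.567). Of the 9 feedback regulators of p53 listed, 4 rose (44.4%), 1 fell (11.1%) and 4 did not pass, with a median of 0.07. The shares among all genes with a mean value of at least 5 were 11.9% higher and 15.9% lower.

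Among p53 targets for cell death, BBC3 (PUMA), which frees BAX and BAK by binding the pro-survival proteins, had the largest difference. It was at 7.29, 7.46 and 7.47 in untreated cells and at 8.85, 8.80 and 8.91 after NCS (1.45 ± 0.065). TP53INP1, a stress protein of autophagy and death, rose by 1.28. The death receptor gene FAS rose by 0.95, PIDD (now PIDD1), which assembles the PIDDosome, by 0.92, EDA2R by 0.83 and TNFRSF10B, the TRAIL receptor DR5, by 0.78. PMAIP1 (NOXA), another BH3-only gene, rose only from 10.10, 10.16 and 10.04 to 10.38, 10.39 and 10.42, a difference of 0.29 ± 0.067 (adjusted p = 0.00405), and BAX by 0.26. Of the 21 death genes, 15 rose, 5 did not pass and APAF1, the core of the apoptosome, fell by 0.12. That call was lost when NCS replicate 3 or untreated replicate 3 was left out (adjusted p up to 0.0719). The median was 0.36. In the wider BCL2 family, 7 of 13 pro-death genes rose (53.8%, beside 11.9% of genes with a mean value of at least 5). Of the same 13, 1 fell (7.69%, beside 15.9%), and BAK1 rose by 0.44. Of 6 pro-survival genes BCL2L1 alone rose, by 0.12. The fall, that of BNIP3L, and the rise of BIK (0.04) were lost in 4 and 2 of the alternative fits.

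The metabolic and redox targets included 3 called genes. FDXR, which passes electrons to mitochondrial cytochrome P450 enzymes, went from 9.10, 9.17 and 9.18 to 10.49, 10.49 and 10.51 (1.34 ± 0.071). SESN1 (1.20) and SESN2 (1.10) encode sestrins, which restrain mTORC1. C12orf5, now named TIGAR, which lowers glycolytic flux, rose by 0.91. Of these 16 genes 10 rose, 5 did not pass and DDIT4, another mTORC1 inhibitor, had a difference of -0.24 that passed narrowly (adjusted p = 0.0492) and was lost in 8 of the alternative fits, among them each that left out 1 library (adjusted p up to 0.199). The rise of PRKAB1 (0.15) was lost in 3 (adjusted p up to 0.1). Of the 8 targets for DNA repair and dNTP supply, 7 rose, with a median of 0.44. They were led by FBXO22 (0.62), XPC (0.59), the damage sensor of nucleotide excision repair, PCNA (0.55), the sliding clamp, and POLH (0.46), a polymerase that copies past lesions. RRM2B, which makes dNTPs outside S phase, rose by 0.42. TP53I3, an oxidoreductase from the death list, rose by 0.25 ± 0.035 (adjusted p = 5.94e-05). Of the 27 secreted, membrane and other targets, 21 rose and none fell (median 0.36), with GDF15, the cytokine gene LIF (1.22), ZNF79 (0.81), CSF1 (0.80) and TRAF4 (0.80) ahead. To set beside the counts of these lists, 11.9% of genes with a mean value of at least 5 were higher and 15.9% lower.

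Over the 5 lists of p53 targets together, 62 of 83 genes rose (74.7%), 2 fell (2.41%) and 19 did not pass, with a median difference of 0.40. The shares among all genes with a mean value of at least 5 were 11.9% higher and 15.9% lower. Of 84 listed genes 1 was at 0 throughout. Of the 18 genes called higher, 12 were in these lists, which were compiled with earlier results of these data known. The others were MDM2, ATF3 (a stress-induced factor of the AP-1 family), RELB (a subunit of NF-kB), and 2 genes in none of the lists besides ACER2, a Golgi ceramidase. These were THSD1, an endothelial cell surface protein, which rose from 7.71, 7.84 and 7.84 to 9.15, 9.11 and 9.14 (1.34), and SLC30A1, which exports zinc from the cell and rose from 8.26, 8.26 and 8.40 to 9.60, 9.62 and 9.49 (1.26). ACER2 dropped under the limit of 1 with quantile normalization, without NCS replicate 3 and without untreated replicate 1, at 0.98 or more.

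**Figure D2:**
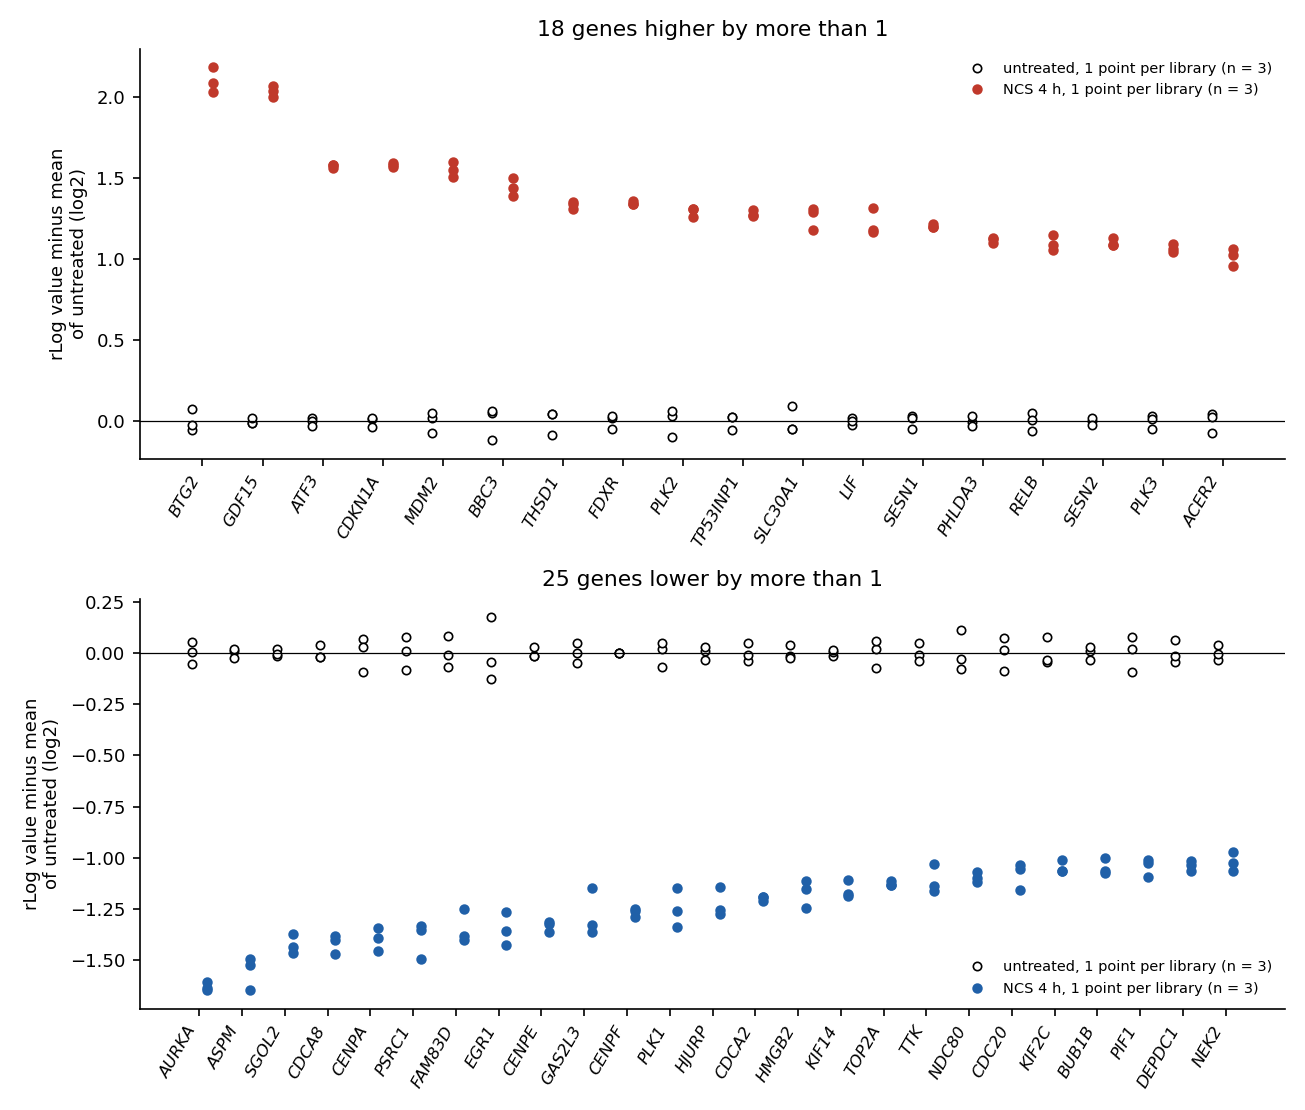
rLog value of each library minus the mean of the 3 untreated libraries (log2, y axis) for the 18 genes called higher and the 25 called lower (x axis), with open points for untreated cells and filled points for NCS 4 h. In every gene the 3 filled points lie apart from the 3 open ones, as the rule for calling selects for, and the replicates of EGR1 in untreated cells spread the most.

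Genes of mitosis made up most of those called lower. AURKA, the kinase that matures centrosomes and builds the spindle, fell most, from 10.91, 10.97 and 11.02 to 9.36, 9.33 and 9.32, a difference of -1.63 ± 0.11 and 3.09-fold lower on this scale. ASPM, which holds the spindle poles, went from 11.40, 11.41 and 11.37 to 9.75, 9.90 and 9.87 (-1.55 ± 0.095). PLK1, the kinase that drives entry into mitosis, went from 11.70, 11.79 and 11.82 to 10.51, 10.62 and 10.43 (-1.25 ± 0.11). None of the NCS libraries came near an untreated one in these 3 genes, a separation that the rule for calling selects for. Of the 25 genes called lower, 23 belonged to the list of 80 G2/M genes, which was compiled with earlier results of these data known. In that list 79 genes fell and none rose, with a median of -0.80 beside -0.0003 over all genes. Of genes with a mean value of at least 5, 15.9% were lower and 11.9% higher. MYBL2, a transcription factor that is made earlier, at the start of S phase, was the member that did not pass (0.09).

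Different parts of the mitotic machinery were among the genes called lower. Among centromere and kinetochore genes were CENPA (-1.40), the histone that marks centromeres, its chaperone HJURP (-1.22), the kinetochore motor CENPE (-1.33), CENPF (-1.27) and NDC80 (-1.10), which binds microtubules. The cohesin protector SGOL2 fell by 1.42 and CDCA8, a part of the chromosomal passenger complex, also by 1.42. Of the spindle checkpoint, TTK fell by 1.11, BUB1B by 1.05 and CDC20, the activator of the anaphase-promoting complex, by 1.08. The motors KIF14 (-1.16) and KIF2C (-1.05) and the chromatin proteins TOP2A (-1.13) and HMGB2 (-1.17) were also called lower. The mitotic cyclin genes CCNA2 and CCNB1 fell by slightly less than the limit, at -0.98 and -0.93, and were not called. CDK1, their partner kinase, changed little beside them. Its values were 10.72, 10.67 and 10.76 and then 10.50, 10.44 and 10.49 (-0.24 ± 0.067, adjusted p = 0.0169), and the call was lost without NCS replicate 2 or untreated replicate 3 (adjusted p up to 0.0665). CKS1B (-0.18) was lost in 3 alternative fits (adjusted p up to 0.0595). FOXM1, which activates many of these genes, fell by 0.26.

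The 2 genes called lower outside the list were GAS2L3 (-1.28), which links actin and microtubules, and EGR1 (-1.35), an immediate-early factor that growth factors such as EGF switch on. EGR1 was at 11.21, 11.43 and 11.13 in untreated cells and at 9.83, 9.90 and 9.99 after NCS. As stated above, the medium was replaced at treatment, which for these NCS libraries was 4 h before. The part of this in the EGR1 difference was not tested.

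**Figure D3:**
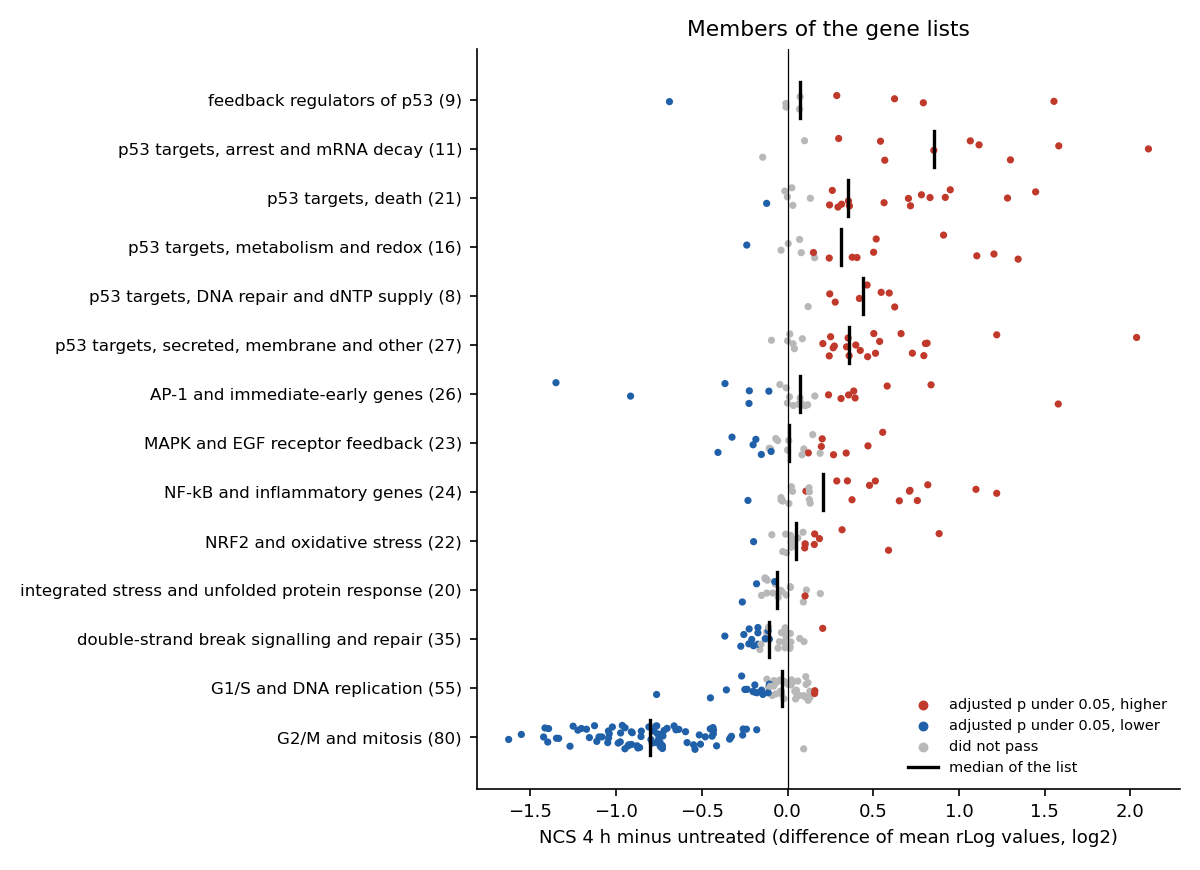
Difference between NCS 4 h and untreated cells (log2, x axis) for each member of 14 gene lists (rows, number of members in brackets), coloured by whether the adjusted p passed, with a black bar at the list's median and random vertical spread. The 5 lists of p53 targets have medians between 0.31 and 0.85, and the G2/M list has a median of -0.80 with 79 of 80 members lower.

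Promoter sequences from RefSeq (GRCh38.p14, 250 bases before to 50 after the start of the gene) were matched by symbol to 12579 of the 19694 genes, to 14 of the 18 genes called higher and to 19 of the 25 called lower. The CHR was searched as TTTGAA on both strands, where the other strand reads TTCAAA. It was found in 14 of the 19 promoters of genes called lower (73.7%) and in 44 of 64 of the G2/M list (68.8%), compared with 11.0% of all promoters and 9.52% of those of genes with a mean value of at least 5. It was in 0 of the 14 promoters of genes called higher and in 6.15% of those of p53 targets. Genes of mitosis are known for this element. The promoters below, each 40 bases and each read in the direction of the gene, are shown because the element, in capitals, begins 18 to 29 bases before the start. The last is that of EGR1, the gene among them that is outside the G2/M list. A match of the letters alone, as found in 11.0% of all promoters, does not show that it works as a CHR.
CENPA, chr2:26786016-26786055 (+): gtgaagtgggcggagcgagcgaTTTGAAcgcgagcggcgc
PIF1, chr15:64825650-64825689 (-): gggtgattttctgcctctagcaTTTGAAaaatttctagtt
BUB1B, chr15:40161024-40161063 (+): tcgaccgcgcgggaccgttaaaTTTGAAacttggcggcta
CDCA8, chr1:37692471-37692510 (+): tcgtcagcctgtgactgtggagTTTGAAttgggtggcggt
DEPDC1, chr1:68497092-68497131 (-): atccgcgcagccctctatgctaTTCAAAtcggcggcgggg
PLK1, chr16:23678838-23678877 (+): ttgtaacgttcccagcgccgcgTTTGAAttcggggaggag
EGR1, chr5:138465428-138465467 (+): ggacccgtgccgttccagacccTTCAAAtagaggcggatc

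The p53 response element, taken as 2 half-sites, together 20 bases without a spacer, was searched in the same promoters with at most 2 mismatches. The 4 fixed bases, a C and a G in each half-site, had to match. Such an element was found in 4 of the 65 promoters of p53 targets (6.15%) and in 0.223% of all promoters, and in none of the 14 of genes called higher. Many known p53 sites lie in introns or farther upstream, outside these 300 bases, and no match says only that the letters are not in this window. The fourth of these genes, GLS2, has its match after the start and did not pass the test (-0.04). Each of the others rose, AEN, a nuclease of apoptosis, by 0.71, DCP1B, a decapping protein, by 0.50 and GPX1, a glutathione peroxidase, by 0.24. Their matches are in capitals.
AEN, chr15:88621296-88621335 (+): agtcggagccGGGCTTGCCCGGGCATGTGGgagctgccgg
DCP1B, chr12:2004640-2004679 (-): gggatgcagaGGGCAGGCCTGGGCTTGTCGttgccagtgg
GPX1, chr3:49358511-49358550 (-): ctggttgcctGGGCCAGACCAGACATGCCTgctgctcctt

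Of the 55 genes of the G1/S list, which serve DNA replication, 39 did not pass, 14 fell (25.5%) and 2 rose (3.64%), with a median of -0.04, beside 15.9% lower and 11.9% higher among genes with a mean value of at least 5. Of these calls, 5 falls and 1 rise were lost in at least 1 alternative fit. The helicase subunit MCM2 was at 11.06, 11.10 and 11.13 and then at 11.10, 11.12 and 11.08 (0.00, adjusted p = 0.994). The largest fall was that of DBF4, which activates the kinase CDC7 that fires origins, at -0.76, followed by E2F2 (-0.45), UHRF1 (-0.36) and CDC7 itself (-0.27), whose call was lost without NCS replicate 3, untreated replicate 1 or untreated replicate 2 (adjusted p up to 0.0725). CDC6, which licenses origins, was among the 2 that rose (0.16). Genes that signal and repair double-strand breaks did not rise as a list. Of 35, 13 fell, 1 rose (LIG1, the ligase of replication) and 21 did not pass, with a median of -0.11. Of the 13 falls, 6 were lost in at least 1 alternative fit. H2AFX, the histone that ATM phosphorylates at breaks, fell by 0.37, BARD1, the partner of BRCA1, by 0.27, CHEK2 by 0.26 and POLQ by 0.23. Of 62 clustered histone genes 60 did not pass, 1 rose and 1 fell, but their mean value was 1.2 to 1.221 after NCS and in untreated cells, a range in which genes rarely pass.

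Of the genes related to p53 or used as marks of senescence, 5 of 12 fell (41.7%) and 1 rose (8.33%). The shares among all genes with a mean value of at least 5 were 15.9% lower and 11.9% higher. The CDK inhibitor genes CDKN2C (-0.85), CDKN1B (-0.78) and CDKN2D (-0.45) fell while CDKN1A rose. CDKN1B, which encodes p27, went from 9.75, 9.71 and 9.63 to 8.86, 8.91 and 8.99. LMNB1, a lamin whose loss is a mark of senescence and which also belongs to the cell cycle, fell by 0.81. TP73 rose by 0.27, but not with a fit of the 6 libraries alone or without untreated replicate 1 (adjusted p up to 0.0701).

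In the list of NF-kB and inflammatory genes, which holds subunits of NF-kB as well as targets, 13 of 24 genes rose (54.2%), 1 fell and 10 did not pass, with a median of 0.21. Over all genes 7.47% were higher and 9.72% lower. RELB, of the non-canonical branch, rose from 7.82, 7.78 and 7.71 to 8.92, 8.83 and 8.86 (1.10 ± 0.05), and LIF, which is also in a p53 list, from 8.94, 8.90 and 8.92 to 10.10, 10.24 and 10.09 (1.22). PTGS2, which makes prostaglandins, rose by 0.82 and BIRC3, an inhibitor of apoptosis, by 0.76. The rise of NFKB1 (0.11) was lost in 8 alternative fits (adjusted p up to 0.194).

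Immediate-early and MAPK genes moved both ways. Of 26 AP-1 and immediate-early genes, 8 rose (30.8%) and 6 fell (23.1%), with a median of 0.07. The shares among all genes with a mean value of at least 5 were 11.9% higher and 15.9% lower. ATF3 rose from 8.24, 8.22 and 8.19 to 9.78, 9.80 and 9.80 (1.58 ± 0.052) and NR4A1, an orphan nuclear receptor, by 0.84. FOS fell from 6.82, 6.93 and 6.89 to 5.96, 5.94 and 5.99 (-0.92 ± 0.08), and MYC fell by 0.36. JUN did not pass (0.10, adjusted p = 0.286), and the rise of FOSB and the fall of ZFP36 were lost in 5 and 2 alternative fits (adjusted p up to 0.109 and 0.103). Of 23 genes for MAPK and EGF receptor feedback, 7 rose (30.4%) and 6 fell (26.1%), with a median of 0.01. The phosphatase genes DUSP4 and DUSP6 were at 0.55 and -0.41 and the EGF receptor ligand HBEGF at 0.47. DUSP8 (0.34) lost its call when only the 6 libraries were fitted (adjusted p = 0.0556), and the falls of PHLDA1 and EGFR were lost in 6 and 3 alternative fits (adjusted p up to 0.164 and 0.0659).

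Of 22 NRF2 genes, which answer to oxidative stress, 8 rose (36.4%) and 1 fell (median 0.05), beside 11.9% higher and 15.9% lower among all genes with a mean value of at least 5. HMOX1, which breaks down heme, rose from 9.73, 9.79 and 9.71 to 10.65, 10.64 and 10.60 (0.88), OSGIN1 by 0.59 and ABCC3, an exporter, by 0.32. The cystine carrier SLC7A11 fell by 0.20, without a call when untreated replicate 1 was left out (adjusted p = 0.0502), and the rise of ME1 was lost in 2 alternative fits (adjusted p up to 0.0787). Of 20 genes of the integrated stress and unfolded protein responses 1 rose (5%), 4 fell (20%) and 15 did not pass (median -0.06). VLDLR fell by 0.26. ATF4, the central factor of the integrated stress response, had a difference of -0.18 that was lost in 7 alternative fits (adjusted p up to 0.148). CEBPG (-0.13), EDEM1 (0.10) and SEL1L (-0.08) were lost in 9, 6 and 4.

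In the WNT and BMP/TGF-beta lists some genes rose and some fell. DKK1, a secreted inhibitor of WNT signaling, had the smallest adjusted p of all genes (4.99e-13). It rose from 11.08, 11.09 and 11.06 to 11.91, 11.92 and 11.88 (0.83 ± 0.025). Of the 17 WNT genes, DKK1 included, 12 did not pass, 4 rose (23.5%) and WNT5A fell (5.88%). The shares among all genes with a mean value of at least 5 were 11.9% higher and 15.9% lower. FZD8, a WNT receptor, rose by 0.37, and the rises of LEF1 (0.25) and WNT5B (0.07) were each lost in 3 alternative fits (adjusted p up to 0.0708 and 0.129). Of 20 ID, HES and BMP/TGF-beta genes 8 rose and 4 fell (median 0.02), beside the same background of 11.9% higher and 15.9% lower. INHBA, an activin subunit, was at 0.67, the pseudoreceptor BAMBI at 0.46, BMP2 at 0.40 and ID2 at -0.38. The falls of HES1 and CTGF were lost in 1 and 3 alternative fits (adjusted p up to 0.0613 and 0.0663).

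Most genes in each list of cell identity markers did not pass. Among all genes with a mean value of at least 5, 11.9% were higher and 15.9% lower. Of 13 mesenchymal genes 3 rose (23.1%) and 2 fell (15.4%), with a median of -0.01. The falls, of TWIST1 (-0.39) and ZEB1 (-0.19), passed in every alternative fit (adjusted p up to 0.0013 and 0.00588). Of the rises, NES was lost without NCS replicate 1 and COL5A1 in 4 alternative fits (adjusted p up to 0.0639 and 0.122). Of 12 duct genes KRT18 (0.17) and KRT7 (0.25) rose (16.7%), and the KRT7 call was lost in 10 alternative fits (adjusted p up to 0.198). TEK was the 1 of 5 endothelial genes that passed, at -0.19, and TERT the 1 of 3 telomerase genes, at -0.13. Each of these calls was lost without 1 or more of the libraries (adjusted p up to 0.0649 and 0.104). Of 80 ribosomal protein genes 9 rose (11.2%), 1 fell (1.25%) and 70 did not pass (median 0.04). The share that rose was near the 11.9% of all genes with a mean value of at least 5.

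Long genes were lower more often than short ones. The span of the gene in GENCODE v29 was found for 10556 of the 11681 genes with a mean value of at least 5 (90.4%). The median difference was 0.036 for the 808 genes under 5 kb and -0.064 for the 814 genes over 200 kb. Among the shortest genes 14.2% were higher and 8.66% lower, and among the longest 8.60% were higher and 27.3% lower. Each NCS library on its own showed the same direction, with medians of 0.050, 0.028 and 0.023 for the shortest and of -0.064, -0.067 and -0.059 for the longest genes against the untreated mean. The longest genes had a median of -0.029 at 8 h and of 0.036 at 24 h after NCS. At 4 h after H2O2 the medians were 0.065 for the shortest and -0.144 for the longest genes, a wider span than after NCS, with the untreated libraries shared. These shifts are much smaller than the changes of the called genes, and are a description across genes that share libraries and differ in expression and base composition.

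**Figure D4:**
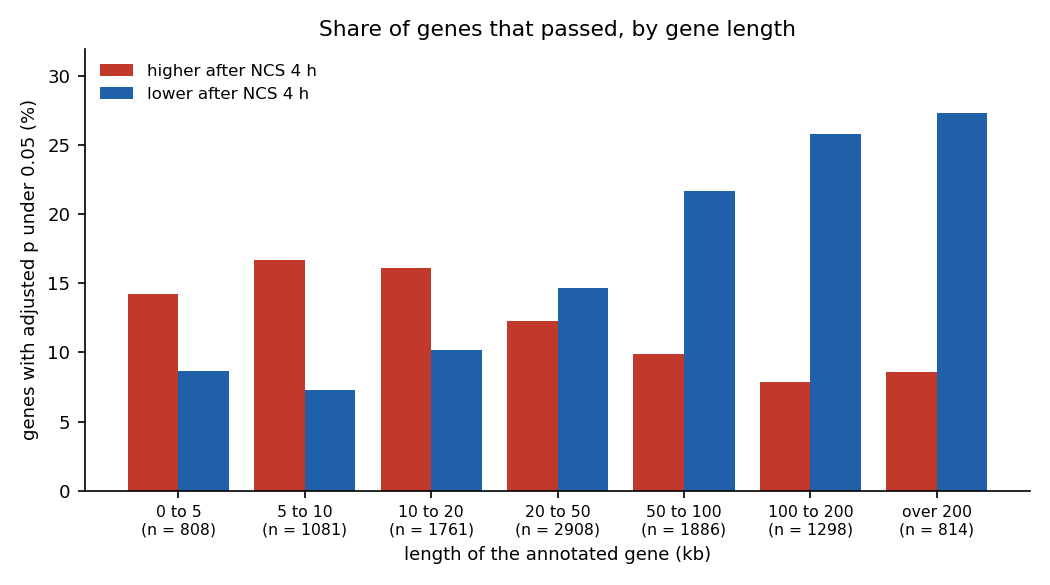
Percentage of genes with an adjusted p under 0.05 that were higher (red) or lower (blue) after NCS 4 h (y axis), by length of the annotated gene in kb (x axis, number of genes in brackets), for genes with a mean value of at least 5. Blue bars stand at 8.66% for the shortest and 27.3% for the longest genes, and red bars at 14.2% and 8.60%, with the highest red bar (16.7%) at 5 to 10 kb and the lowest (7.86%) at 100 to 200 kb.

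To place the 4 h response in time, NCS at 8 and 24 h was compared with NCS at 4 h. The p53 targets moved both ways around a steady median. Some G2/M genes had fallen further by 8 h and most by 24 h, and the G1/S genes fell after 4 h. Over all genes, 6.16% were higher and 7.5% lower at 8 h than at 4 h, and 19.5% higher and 18.8% lower at 24 h. Of the 83 p53 targets, 16 were higher and 17 lower at 8 h than at 4 h, and 25 were higher and 35 lower at 24 h than at 4 h. Their median difference from untreated cells was 0.40, 0.42 and 0.41 at 4, 8 and 24 h. These medians share the untreated libraries. Of the 80 G2/M genes, 36 were lower still at 8 h and 77 at 24 h, with medians of -0.80, -1.03 and -1.97. Of the 55 G1/S genes, 50 were lower at 8 h and 53 at 24 h, with medians of -0.04, -0.42 and -1.30.

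Single genes followed different courses. MDM2 was lower at 8 h than at 4 h (-0.43, adjusted p = 4.39e-05), and BTG2 was lower at 24 h than at 4 h (-0.64, adjusted p = 3.43e-07). CDKN1A held its level, with a difference of -0.10 from 4 to 24 h that did not pass (adjusted p = 0.354), and RRM2B and TP53I3 were higher at 24 h by 0.42 and 0.49. CCNG2 turned from -0.69 against untreated cells at 4 h to 0.45 at 24 h. PCNA, a p53 target that is also made for replication, turned from 0.55 to -0.40. CCNE2, the G1/S cyclin, was at 0.13 at 4 h (adjusted p = 0.104) and at -0.95 and -1.88 later. PLK1 continued downwards, with differences from 4 h of -0.83 at 8 h and -1.62 at 24 h. Of the 25 genes called lower at 4 h, 4 were lower still at 8 h and 21 did not pass. At 24 h 23 of them were lower than at 4 h and 1 was higher. These 25 were chosen by low values at 4 h, which works against finding a further fall. Their counts therefore do not describe the whole G2/M list, in which 36 of 80 genes were lower still at 8 h.

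**Figure D5:**
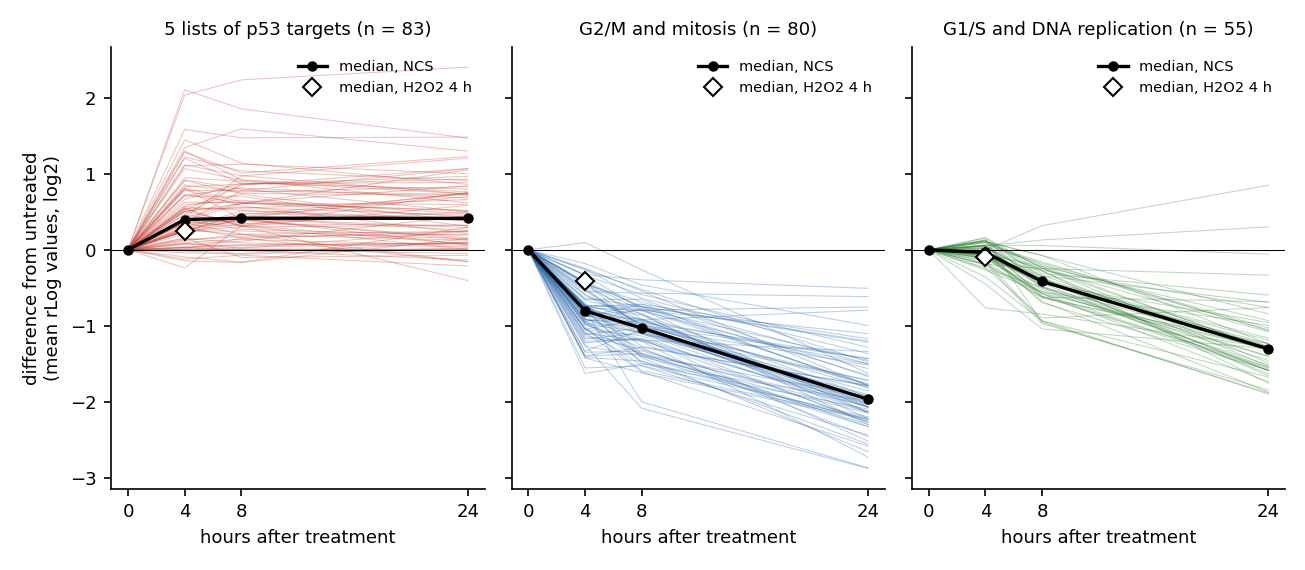
Difference from untreated cells (log2, y axis) against hours after treatment (x axis) for each member of the p53 target, G2/M and G1/S lists, with 1 thin line per gene, the median after NCS in black and the median after H2O2 at 4 h as a diamond. At 4 h the G2/M median is -0.80 and the G1/S median -0.04, and at 24 h they are -1.97 and -1.30.

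The last comparison asks where NCS and H2O2 differed at the same time. H2O2, an oxidant that also damages DNA, was compared with NCS at 4 h directly, with neither group's difference from untreated cells entering the test. Over all genes, 18% were higher and 26.3% lower after NCS than after H2O2. Of the 83 p53 targets, 44 were higher after NCS and 15 lower. Of the 8 genes for repair and dNTP supply all 8 were higher after NCS, with a median difference from untreated cells of 0.44 after NCS and 0.09 after H2O2. MDM2 was higher after NCS than after H2O2 by 0.77 ± 0.057 (adjusted p = 4.07e-09), FDXR by 0.98 and XPC by 0.51. The difference of BBC3 did not pass (-0.11 ± 0.065, adjusted p = 0.172). Other targets were lower after NCS, with differences of -0.85 ± 0.067 for PMAIP1 (adjusted p = 8.27e-09), -0.87 for GADD45A and -0.77 for SESN2.

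The fall of mitotic genes was deeper after NCS. As given above, 26.3% of all genes were lower after NCS than after H2O2 and 18% higher. Of the 80 G2/M genes, 66 were lower after NCS than after H2O2 and 2 higher, with medians against untreated cells of -0.80 and -0.41. AURKA differed by -1.07 ± 0.11 (adjusted p = 1.8e-07) and PLK1 by -0.94, whereas the -0.14 of MKI67 did not pass (adjusted p = 0.172). Several other stress lists were mostly lower after NCS than after H2O2, with 21 of 26 AP-1 and immediate-early genes, 15 of 23 MAPK feedback genes, 13 of 22 NRF2 genes and 19 of 20 genes of the integrated stress and unfolded protein responses lower. In the NF-kB list 10 of 24 genes were higher after NCS and 6 lower, the latter near the share over all genes. In the list for double-strand breaks 19 of 35 were higher and 3 lower. The difference was -4.52 for FOSB (adjusted p = 2.02e-15), -2.56 for HMOX1 and -1.87 for ATF3. DKK1 was higher after NCS by 0.64 ± 0.025 (adjusted p = 1.09e-12), as was BIRC3 by 0.81.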

How the data were processed

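RNA was isolated from hTERT-HPNE cells and sequenced from stranded mRNA libraries. The authors aligned reads with HISAT2, counted them with htseq-count and passed the counts to DESeq2. The submitters' processing notes name hg19; the annotation and the tool versions are not given in the sources used here. The deposited values are rLog values on the log2 scale, made by the authors over all 21 libraries. Counts are not among them, and sequencing depth is therefore unknown.

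No further normalization was applied. Of 23368 genes, 3674 were at 0 in every library and were left out. In the gene names 28 had become dates and 2 symbols occurred repeatedly. The test was that of limma 3.58.1 (R 4.3.3), fitted once to all 7 groups with a trended prior variance, and p-values were adjusted by the Benjamini-Hochberg method over all 19694 genes. Comparisons with 8 h, 24 h and H2O2 used the same fit. A two-sided exact permutation test of 3 against 3 libraries cannot go below 0.1 and was not used. The script was tested on simulated data.

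Gene lists were compiled by hand. Members and lists were chosen with earlier results of these data known, and lists are described by counts and medians only. Genes were named if called (the 15 largest rises and falls first), as feedback regulators of p53, as the 4 members of a list with the largest difference among those that passed, or as selected p53 targets. Others, such as TOB1, CCNE2, MCM2, MYBL2, GLS2, FOXM1, MYC and CD99, were named after their values were seen. Gene spans (GENCODE v29, GRCh38) and promoters (RefSeq, GRCh38.p14) were matched by symbol, and no hg19 coordinate is given. One further gene is not reported here.

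The alternatives were quantile normalization, median alignment of libraries, only genes with a mean value of at least 5, a fit of the 6 libraries only, a replicate block, no variance trend, a log2 difference over 0.58 and each of the 6 libraries left out in turn. Figures were drawn with Python 3.11.15, numpy 2.4.6, pandas 2.3.3 and matplotlib 3.10.9.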

Additional observations from a re-analysis of the deposited data

Results flagged for a closer look

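Among the named genes, FOS was the 1 that differed from untreated cells by more than 0.3 in opposite directions after the 2 agents at 4 h. Its difference from untreated cells was -0.92 after NCS and 0.76 after H2O2, in all libraries of each group, and the direct difference, NCS minus H2O2, was -1.68 ± 0.08 (SE, n = 3 per group, adjusted p = 1.39e-11, limma).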

How the results depend on the processing

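The counts of called genes and of genes that passed stayed within 1.5 times their values under quantile normalization, median alignment, restriction to mean values of at least 5, a fit of the 6 libraries only, no variance trend and with each library left out. With the limit lowered to 0.58, 90 genes were called higher and 107 lower, of which 27 were p53 targets and 61 G2/M genes. Between 42 and 45 genes were called in the other fits, and the 43 genes kept an adjusted p under 0.05 in each. With the fit of the 6 libraries alone 1191 genes passed as higher and 1619 as lower, and without untreated replicate 1 these were 1066 and 1455. The balance between the directions depended on the scaling. It was 1471 higher and 1914 lower in the main fit, 1676 and 1659 with quantile normalization and 1237 and 2270 with median alignment. The p53 targets that rose numbered 61 to 63 and the G2/M genes that fell 77 to 79. Over the called genes and the members of the lists, ribosomal protein and histone genes aside, 273 genes that passed were checked, of which 41 lost their call in at least 1 fit. None of these, or of 2 checked that had not passed, reversed. The fit with a replicate block called the same 43 genes, and 1516 genes passed as higher and 1935 as lower. Deviations of same-numbered untreated and NCS libraries correlated at -0.1125, 0.02883 and -0.1049, so the samples were not treated as paired. Without counts, no detection limit can be given for low genes.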

Other observations

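Outside the lists, further genes moved by less than the limit, and they are named here after their values were seen. GDNF, a neurotrophic factor, went from 8.05, 7.99 and 8.17 to 9.09, 9.10 and 8.99. FST, which binds activin, went from 9.18, 9.21 and 9.19 to 10.19, 10.15 and 10.16, while INHBA, the activin subunit described above, rose as well. PAPPA, a protease that frees insulin-like growth factors, rose from 11.41, 11.33 and 11.32 to 12.06, 12.13 and 12.20. GPSM2, which orients the spindle, fell from 9.26, 9.23 and 9.32 to 8.35, 8.34 and 8.37, and ESPL1, the protease that opens cohesin, from 9.65, 9.73 and 9.79 to 8.98, 9.00 and 8.99. WEE1, the kinase that holds CDK1 inactive, fell from 9.87, 9.80 and 9.79 to 8.98, 8.99 and 9.09.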
